A study of Drosophila melanogaster with 3 samples.

Results

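The cell cycle and DNA replication genes described here are 46 named protein-coding genes of Drosophila melanogaster, taken from a list of the enzymes and regulators that copy and divide the genome, out of 13945 protein-coding genes annotated on the 6 chromosome arms. Of the 46 names, 45 matched the annotation directly, and lat was matched through its other name, Orc3. The study mapped where CG18262, a protein the labels treat as a transcription factor, sits on chromatin, by chromatin immunoprecipitation and sequencing (ChIP-seq) of whole mixed-sex embryos collected from 0 to 16 hours of development. They came from a transgenic line that stably expresses CG18262 with green fluorescent protein (GFP) at its C-terminus, and the precipitating antibody was directed at GFP. The 3 biological replicates formed 1 group, so no genotypes, ages or treatments could be compared. Embryos of this age span fast nuclear divisions, slowing cycles and cells that have left the cycle, and the whole embryos were not separated by stage, tissue or cycle phase. Neither the promoter of the transgene nor the amount of tagged protein is stated in the labels.

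In the fly embryo, early divisions run on maternal products, and later cycles depend on transcription of the zygote's own genes. The factor E2f1 with its partner Dp switches on genes for DNA synthesis, while Rbf and E2f2 hold them down. Origin recognition and Mcm proteins license DNA for copying, cyclins paired with Cdk kinases drive the transitions, the phosphatase String releases Cdk1 for mitosis, and the anaphase-promoting complex (APC) with its activators ends mitosis by destroying cyclins and securin.

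The data were lists of peaks, stretches of DNA where sequenced fragments pile up, each with a summit (its highest point) and a signal value given by the authors. Each of the 3 replicate lists and the list called on the pooled replicates held 30000 peaks. The thresholded list, kept for reproducibility between replicates by the irreproducible discovery rate, held the 8529 strongest of the pooled peaks, so rank 1 is the strongest peak and rank 8529 the weakest kept. For each replicate the 8529 strongest peaks were used where lists were compared at equal length. The read depth behind the lists is unknown. No control or untagged chromatin was analysed here, so a peak of the tagged protein and signal that open promoters give with any antibody cannot be told apart.

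A summit of the thresholded list lay within 500 bp of an annotated start, the rule used here for a bound gene, at 21 of the 46 cell cycle genes (45.7%, exact 95% interval 30.9 to 61), beside 26.7% of all protein-coding genes. Such intervals cover counting error only. The replicates gave close counts: 20 members in replicate 1 (26.7% of all genes), 24 in replicate 2 (27.9%) and 21 in replicate 3 (26.7%), a mean of 21.7 ± 2.08 members (SD, n = 3). In all 3 replicates at once, 13 members were bound (28.3%), beside 20% of all genes, and the interval of that share, 16 to 43.5%, holds the value of all genes. The whole pooled list reached 36 members (78.3%), beside 44.7% of all genes. Of these, 15 members (32.6%) had only peaks too weak for the thresholded list, beside 17.9% of all genes. In each list the share of members exceeded that of all genes.

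**Figure D1:**
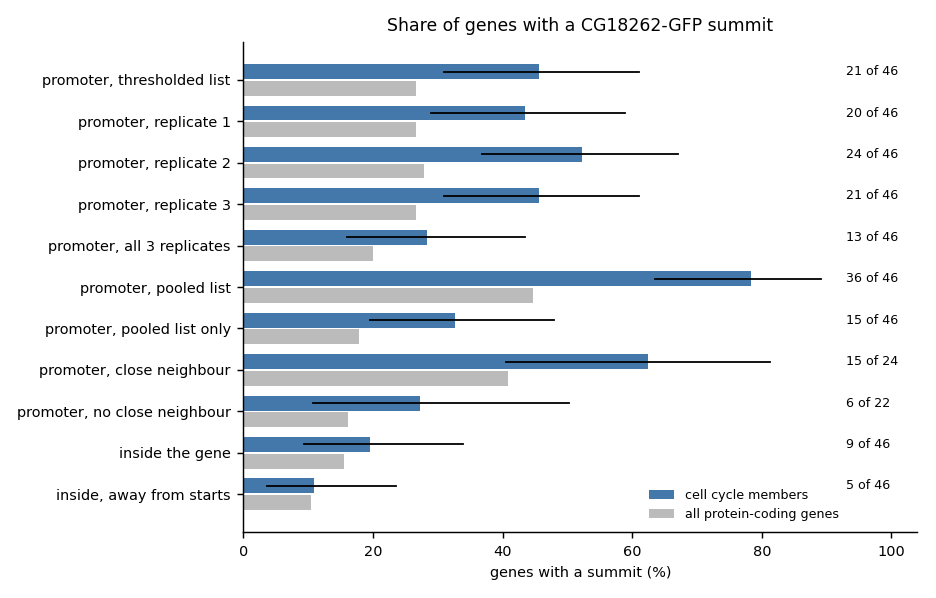
Bars give the percentage of genes with a summit, for the 46 cell cycle members (blue, exact 95% interval as a black line) and for all protein-coding genes (grey), in each list and gene class; the first 9 pairs count promoter summits and the last 2 pairs summits inside the gene. The blue bar is above the grey one in all 11 pairs, by the least (10.9% and 10.5%) for summits inside the gene and away from starts.

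Many of these genes start close to another gene. Of the 46 members, 24 (52.2%) had a start of another protein-coding gene within 1000 bp of a start of their own, beside 42.9% of all genes. Among these 24, 15 were bound (62.5%), beside 40.8% of all genes with so close a neighbour. The interval for those 15 runs from 40.6 to 81.2% and holds 40.8%. Among the 22 members without a close neighbour, 6 were bound (27.3%), beside 16.2% of such genes in general: E2f1, dap, BubR1, CycB3, CycA and fzr. The interval for those 6 runs from 10.7 to 50.2% and holds 16.2%. At 11 of the 21 bound members (52.4%) the strongest promoter summit also lay within 500 bp of a start of another gene, beside 55.9% of all bound genes. At these 11 genes the peak cannot be assigned to the cell cycle gene over its neighbour.

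The median rank of the bound members' strongest promoter peaks was 5118, beside 3538 for all 3728 bound genes. Of the 21 peaks, 1 (4.76%) was among the 852 strongest, beside 14.8% of all bound genes. No interval was computed for either value, and 21 peaks are few. Nearly all lay upstream: 19 of 21 strongest summits (90.5%) were upstream of the nearest start and 2 were downstream, beside 86.9% upstream for all bound genes. The median distance to the start was 210 bp for members and 162 bp for all bound genes. Of the 21, 15 summits lay outside genes, 3 in introns and 3 in non-coding parts of exons.

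The replicate ranks given for each gene are those of its strongest promoter peak in that replicate, which can lie at another position than the thresholded summit. At 6 bound members (Orc2, Mcm5, Mcm6, dup, fzy and fzr) at least 1 replicate's rank belongs to a summit other than the one within 100 bp of the thresholded summit, and the distances are then given. The role groups below hold 2 to 10 members each. Their counts stand beside 26.7% of all genes in the thresholded list and 44.7% in the pooled list. No interval was computed for groups so small, and none is read as different from the others.

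**Figure D2:**
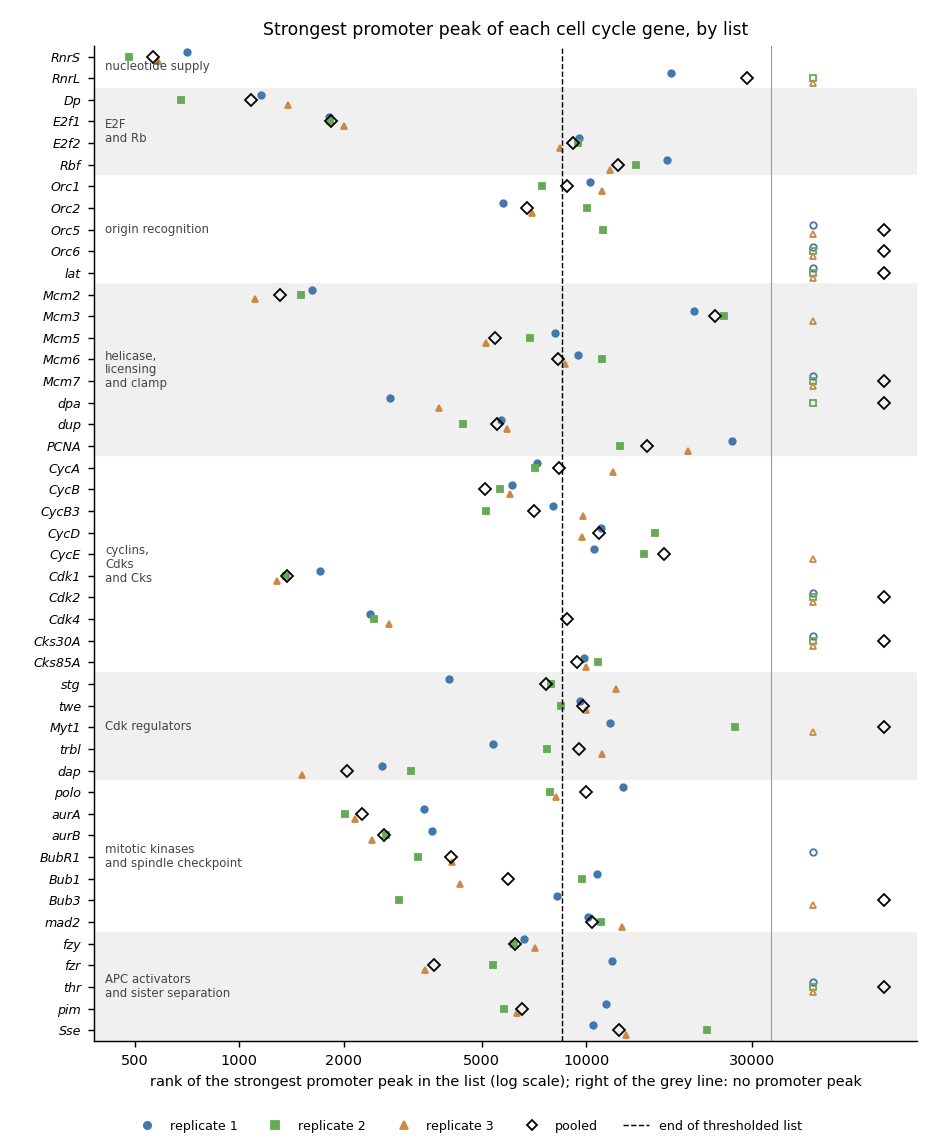
Each row is a cell cycle gene, grouped by role, and each marker is the rank of its strongest promoter peak in replicate 1 (circle), replicate 2 (square), replicate 3 (triangle) and the pooled list (diamond), on a log axis with strong peaks to the left; the dashed line marks rank 8529, and markers right of the grey line had no promoter peak in that list. RnrS is the member furthest left, at ranks 480 to 705, and 10 members have no promoter peak in the pooled list.

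The bases under the summits of 6 bound members and under 2 summits inside introns are shown for their runs of A and T. The intron summits in CycE and trbl were chosen after their values were seen, and windows that touch an untranslated exon are not shown. Each window spans 50 bp to either side of the summit and is written 5′ to 3′ on the strand of the gene, with capitals marking runs of at least 6 A or T. On dm6 the windows lie at chr3R:8264710-8264810 for Mcm2, chr3R:11962948-11963048 for aurA, chr2L:10362810-10362910 for pim and chr3R:13964647-13964747 for Orc2, all on the plus strand. On the minus strand lie those at chr2L:10386443-10386543 for Cdk1, chr3R:21633328-21633428 for E2f1, chr2L:15747105-15747205 for CycE and chr3L:20398458-20398558 for trbl. The sequence is that of the RefSeq Release 6 assembly.
Mcm2: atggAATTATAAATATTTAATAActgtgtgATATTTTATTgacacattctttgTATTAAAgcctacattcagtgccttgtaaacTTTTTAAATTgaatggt
Cdk1: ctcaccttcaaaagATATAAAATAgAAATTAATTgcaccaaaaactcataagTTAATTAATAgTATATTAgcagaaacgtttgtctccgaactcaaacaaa
E2f1: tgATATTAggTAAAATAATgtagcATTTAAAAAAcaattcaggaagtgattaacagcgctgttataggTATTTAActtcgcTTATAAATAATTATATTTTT
aurA: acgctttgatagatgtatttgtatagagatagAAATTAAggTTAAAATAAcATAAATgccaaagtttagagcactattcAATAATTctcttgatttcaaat
pim: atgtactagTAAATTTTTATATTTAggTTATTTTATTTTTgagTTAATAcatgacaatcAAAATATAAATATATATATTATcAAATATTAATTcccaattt
Orc2: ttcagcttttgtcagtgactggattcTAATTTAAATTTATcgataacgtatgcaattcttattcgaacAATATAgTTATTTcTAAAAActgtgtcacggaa
CycE: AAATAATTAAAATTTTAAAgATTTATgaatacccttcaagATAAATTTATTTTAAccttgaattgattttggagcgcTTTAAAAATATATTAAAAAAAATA
trbl: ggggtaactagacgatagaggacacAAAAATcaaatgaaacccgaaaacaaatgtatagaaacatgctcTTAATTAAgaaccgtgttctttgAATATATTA

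These 8 windows were 67.3% (trbl) to 85.1% (pim) A and T. They are a selection, and their range is not that of all bound members. Windows also read but not shown were those of aurB (64.4%), Bub1 (73.3%) and the E2f1 intron summit of rank 699 (76.2%). Other bound members, RnrS, Dp and dap among them, have no window here. Over the strongest promoter summits of all 21 bound members the median was 70.3%, beside 69.3% for all 3223 promoter peaks, and the 6 arms as a whole were 57.8% A and T. The starts nearest to the members' summits had a median of 55.4%. At 16 of the 21 members the summit was richer in A and T than its start. Starts were not measured for all promoter peaks, so neither value has a general one beside it. A rise at the summit was not particular to members. Over all 3223 promoter peaks the mean was 67.3% at the summit and 55% at 400 bp to its right. The members differed among themselves, from 44.6 to 85.1%. None of the promoter windows shown is among the 4 summits below the 57.8% of the arms, which were those of stg (44.6%), CycB3 (47.5%), CycB (53.5%) and fzy (57.4%). These 4 and BubR1 are the 5 members whose summit was not richer in A and T than its start.

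**Figure D3:**
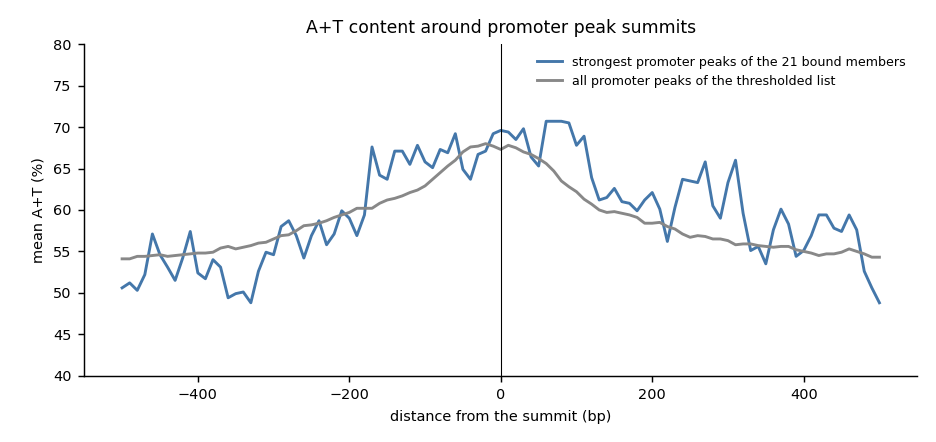
Mean A and T content (%) in windows of 21 bp against distance from the summit (bp), for the strongest promoter peaks of the 21 bound members (blue) and for all promoter peaks of the thresholded list (grey). Both lines are highest near the summit, at 69.6% for members and 67.3% for all promoter peaks at the summit itself, and they stand at 55.1% for members and 55% for all promoter peaks 400 bp to the right. The member line averages 21 windows and the other 3223.

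Both genes of nucleotide supply encode ribonucleotide reductase, which makes the deoxynucleotides for DNA. RnrS, the small subunit, had the strongest promoter peak of any member, 222 bp upstream with a signal value of 2168 at rank 564 of the thresholded list. It ranked 705, 480 and 584 in replicates 1, 2 and 3, and a weaker summit (rank 6451) lay 421 bp upstream. The summit was shared with CG34231, whose start lies 615 bp from that of RnrS. RnrL, the large subunit, had no thresholded summit within 3382 bp and only a faint pooled-list peak at rank 29097, which replicate 1 alone of the replicates also listed (rank 17607). Among the 36 members with a pooled-list promoter peak, RnrS had the strongest and RnrL the weakest.

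Of the E2F and Rb genes, 2 of 4 were bound, and those encode the partners of the activating factor. Dp, the DNA-binding partner of E2F proteins, carried 4 summits within 500 bp of its 3 starts. The strongest, with a signal value of 1453 at rank 1077, lay in an intron 448 bp downstream of the nearest start, and ranked 1157, 680 and 1380 in replicates 1 to 3. A second summit at rank 1450 lay 264 bp before an internal start, and the others ranked 4129 and 7379. E2f1, the activator, had its promoter peak 305 bp upstream of an internal start, with a signal value of 1007 at rank 1842 and replicate ranks of 1807, 1831 and 1999. Its 40568-bp gene held 9 thresholded summits, of which 8 lay beyond 500 bp from any start. The strongest of these, at rank 699, lay 3225 bp upstream of the nearest start and was found in every replicate at ranks 515, 753 and 850. E2f2, a repressive E2F, and Rbf, the retinoblastoma protein that binds E2F factors, had weaker peaks at ranks 9187 and 12341 of the pooled list. E2f2 was close to the limit in each replicate, at ranks 9529, 9461 and 8400.

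**Figure D4:**
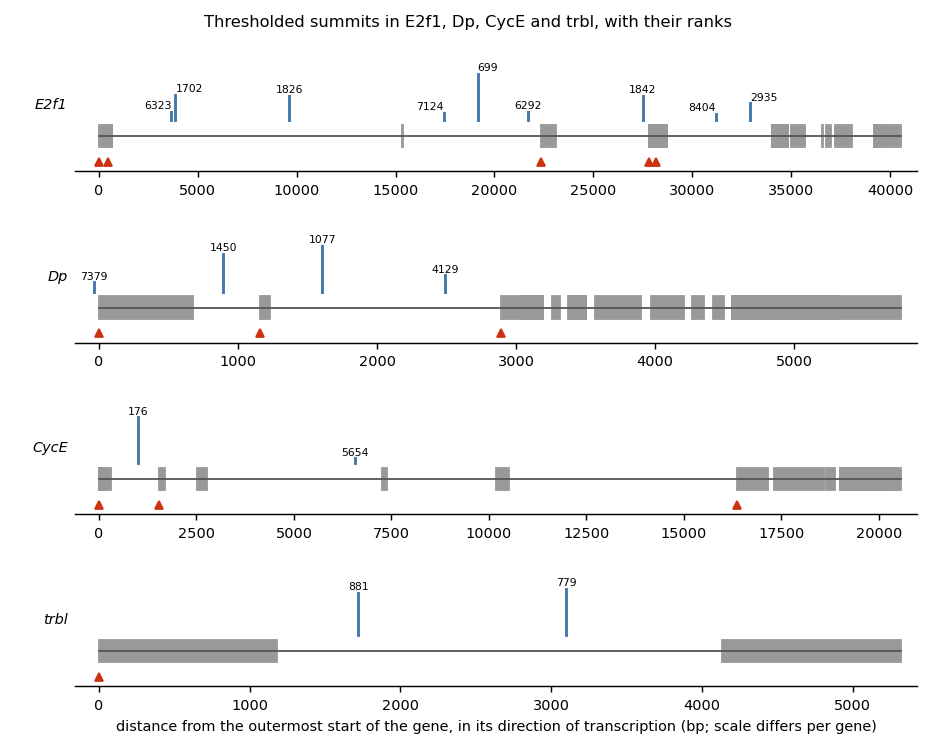
Thresholded summits (blue lines, height in proportion to the authors' signal value within each gene, rank printed above) along E2f1, Dp, CycE and trbl, against distance from the outermost start (bp), with exons as grey boxes and annotated starts as red triangles. The summits lie in introns, apart from the one 34 bp upstream of the outermost Dp start, and those of rank 176 in CycE and 699 in E2f1 are the strongest of their genes.

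The origin recognition complex, which marks where copying can start, was the group with the lowest share of genes bound, 1 of 5 in the thresholded list and 2 of 5 in the pooled list. Orc2 was the bound one, with a summit 188 bp upstream, a signal value of 323.1 and rank 6756. Replicates 2 and 3 placed this summit at ranks 10020 and 6992, and replicate 1 had none within 100 bp of it. The promoter peak of replicate 1, at rank 5759, lay 80 bp upstream. Orc1 followed just below the limit at rank 8818 of the pooled list, with replicate ranks of 10229, 7443 and 11136. Orc5 was listed in replicate 2 alone (rank 11207), and Orc6 and lat had no promoter peak in any list. With 5 genes, the share of the group cannot be set apart from that of the others.

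Among the helicase, licensing and clamp genes 4 of 8 were bound, beside 26.7% of all genes, and 6 of 8 in the pooled list, beside 44.7%. The Mcm proteins form the ring that unwinds DNA. Mcm2 had a summit 210 bp upstream with a signal value of 1286 at rank 1313, and ranks of 1624, 1503 and 1113 in replicates 1 to 3. That summit was shared with RPA1, the large subunit of the protein that coats single-stranded DNA, whose start lies 519 bp away, so both genes it could belong to act in replication. Mcm5 had a summit 252 bp upstream, shared with Art1, with a signal value of 397.9 at rank 5466. It ranked 6890 and 5129 in replicates 2 and 3. Replicate 1 had no summit within 100 bp of it, and its promoter peak, at rank 8140, lay 105 bp upstream. Mcm6 had a summit 351 bp upstream, shared with CG3198, with a signal value of 259.1 at rank 8311. It was the bound member found in none of the replicates' strongest peaks, with ranks of 9480 in replicate 1 and 8707 in replicate 3, while in replicate 2 the promoter peak (rank 11107) lay 230 bp upstream. The gene dup encodes the loading factor Cdt1, and its summit 321 bp upstream, shared with SRPK, had a signal value of 395 at rank 5517. This summit ranked 6914, 4723 and 5926 in replicates 1 to 3. In replicates 1 and 2 a stronger promoter summit, at ranks 5682 and 4420, lay 121 and 131 bp upstream of a start. That of replicate 1 lay within 100 bp of the weaker thresholded summit of dup, which lay 111 bp upstream. That of replicate 2 lay within 100 bp of neither thresholded summit.

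The other Mcm genes and the clamp lacked a thresholded promoter peak. Mcm3 and PCNA, the sliding clamp of DNA polymerase, had pooled-list peaks at ranks 23475 and 14976. The nearest thresholded summit to a start of PCNA lay 1137 bp away. Mcm7 had no promoter peak in any list and its nearest thresholded summit was 20840 bp away. The gene dpa, which encodes Mcm4, had promoter peaks at ranks 2722 in replicate 1 and 3774 in replicate 3, but none in replicate 2 and none in the pooled list. Of the 6 Mcm genes, whose proteins work in 1 ring, 3 were bound: Mcm2, Mcm5 and Mcm6.

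Of the cyclins, Cdks and Cks genes, 4 of 10 were bound. Cdk1, the mitotic kinase, had the strongest of these promoter peaks, 231 bp upstream with a signal value of 1246 at rank 1372, shared with mRpS7, a mitochondrial ribosomal protein gene. Its ranks in replicates 1 to 3 were 1705, 1366 and 1285. The mitotic cyclins had weaker peaks close to their starts. CycB had a summit 41 bp upstream with a signal value of 426.5 at rank 5118, and replicate ranks of 6126, 5659 and 6035. CycB3 had a summit 11 bp upstream with a signal value of 305.9 at rank 7089, and replicate ranks of 8017, 5128 and 9759. CycA had a summit 83 bp downstream of its start with a signal value of 258.4 at rank 8333, and replicate ranks of 7203, 7113 and 11967. None of these 3 cyclin summits lay within 500 bp of a start of another gene.

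CycE and Cdk4 fell outside the 500-bp rule by a small margin. CycE, which drives entry into S phase, had the strongest thresholded summit of any member, at a promoter or inside a gene: rank 176, signal value 3686, and ranks 183, 264 and 168 in replicates 1 to 3. It lay in an intron 545 bp upstream of an internal start. Within 500 bp of its starts CycE had only a pooled-list peak at rank 16809. Cdk4, the kinase that works with cyclin D in cell growth, had a thresholded summit at rank 2418 that lay 507 bp from its nearest start. In replicates 1, 2 and 3 the summit lay 469, 486 and 486 bp upstream, at ranks 2376, 2446 and 2693, so that Cdk4 was the 1 member called bound in all replicates and unbound in the thresholded list. The closest cases inside the rule were fzr at 462 bp and Dp at 448 bp.

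The remaining genes of that group had weak or no promoter peaks. CycD, the partner of Cdk4, and Cks85A, a small Cdk-binding protein, had pooled-list peaks at ranks 10864 and 9399. Cdk2, the partner of cyclin E, and Cks30A had no promoter peak in any list, and their nearest thresholded summits lay 86402 and 57498 bp away. Those are the longest distances among the 46 members.

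Among the regulators of Cdk activity, 2 of 5 were bound. The gene dap, which encodes an inhibitor of cyclin E and Cdk2, had a summit 306 bp upstream with a signal value of 931.7 at rank 2046, and replicate ranks of 2580, 3120 and 1514. The nearest start of another gene was 4785 bp away. The gene stg, which encodes the String phosphatase that times embryonic mitoses, had a summit 28 bp upstream of a start with a signal value of 283.1 at rank 7633. Its replicate ranks spread from 4034 in replicate 1 to 7894 in replicate 2 and 12151 in replicate 3. The related phosphatase gene twe had a pooled-list peak at rank 9816. The gene trbl, whose product promotes the breakdown of String, had a pooled-list promoter peak at rank 9523. In replicates 1 and 2 its promoter peak was among the strongest peaks, at ranks 5402 and 7715. That of replicate 3, at rank 11092, lay 384 bp downstream of the start. A pair of much stronger thresholded summits lay inside the intron of trbl, at ranks 779 and 881. These lay 3101 and 1719 bp downstream of the start and were found in every replicate, at ranks 800, 995 and 718 and at ranks 758, 992 and 943. Myt1, a kinase that inhibits Cdk1, had weak peaks in replicates 1 and 2 (ranks 11723 and 26876) and none in the pooled list.

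The mitotic kinases and spindle checkpoint genes had 4 of 7 members bound. Both Aurora kinase genes were among the stronger ones and both shared their summit with a neighbour. The gene aurA, for the centrosome kinase, had a summit 126 bp upstream with a signal value of 865.2 at rank 2258, shared with CG3281, and replicate ranks of 3401, 2016 and 2152. The gene aurB, for the kinase of the chromosomal passenger complex, had a summit 210 bp upstream with a signal value of 772.3 at rank 2613, shared with Stam, and replicate ranks of 3581, 2642 and 2419. The gene polo, for the Polo kinase, had a pooled-list peak at rank 9971, and was among the strongest peaks of replicates 2 and 3 (ranks 7870 and 8206) but not of replicate 1 (rank 12797).

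Of the spindle checkpoint genes, whose products hold back anaphase until chromosomes attach, BubR1 and Bub1 were bound. BubR1 had a summit 153 bp upstream with a signal value of 525.3 at rank 4082. It ranked 3271 and 4097 in replicates 2 and 3, and replicate 1 listed no promoter peak there. Bub1 had a summit 225 bp upstream, shared with Nin, with a signal value of 367 at rank 5959, and replicate ranks of 10746, 9702 and 4312. Bub3 had promoter peaks at ranks 8212 and 2879 in replicates 1 and 2 and none in replicate 3 or the pooled list. The mad2 promoter had a pooled-list peak at rank 10384 and was outside the strongest peaks of each replicate.

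Of the APC activators and the genes of sister separation, 3 of 5 were bound. The gene fzy, for the Cdc20 activator, had a summit 12 bp upstream, shared with cni, with a signal value of 352.5 at rank 6211. Within 100 bp of it, replicates 1, 2 and 3 had summits at ranks 6597, 22783 and 7129. The stronger promoter peak of replicate 2, at rank 6188, lay 123 bp upstream. The gene fzr, for the Cdh1 activator, had a summit 462 bp upstream with a signal value of 580.8 at rank 3649. A summit within 100 bp of it ranked 3419, 5373 and 3440 in replicates 1 to 3. In replicate 1 that summit fell outside the 500-bp rule, and fzr was represented there by a weaker promoter peak 147 bp upstream at rank 11869. The securin gene pim had a summit 129 bp upstream, shared with Cand1, with a signal value of 335.1 at rank 6512, and replicate ranks of 11371, 5807 and 6319. The separase gene Sse had a pooled-list peak at rank 12442, and thr, whose product works with separase, had no promoter peak in any list.

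Agreement between replicates split the bound members. Of the 21, 12 had a promoter peak, at any position within 500 bp of a start, among the strongest peaks of all 3 replicates: RnrS, Dp, E2f1, Mcm2, Mcm5, dup, CycB, Cdk1, dap, aurA, aurB and fzy. A further 7 were in 2 replicates, Bub1 in 1 and Mcm6 in 0. Over all bound genes, 73.6% were in all 3 replicates. The same summit, within 100 bp, was among the strongest peaks of all 3 replicates at 11 members, which lack Mcm5 and fzy of the 12 and add fzr. The 12 of all 3 replicates included the 8 bound members ranked highest in the thresholded list, from RnrS to aurB. By arm, the bound members numbered 5 of 11 on 2L (27.2% of all genes of the arm), 6 of 13 on 2R (24.6%), 1 of 7 on 3L (27.1%), 7 of 10 on 3R (27.9%) and 2 of 5 on X (26.8%).

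Inside gene bodies the shares of members lay near those of all genes, with wide intervals. A thresholded summit lay between the ends of 9 of the 46 genes (19.6%, exact 95% interval 9.36 to 33.9), beside 15.6% of all genes. The median gene length was 2884 bp for members and 2166 bp for all genes, and the shares were not adjusted for length. Summits more than 500 bp from any start of the gene lay in 5 members (10.9%, interval 3.62 to 23.6), beside 10.5% of all genes. The 5 were E2f1, CycE, trbl, Cdk4 and aurB. These 5 genes held 15 such summits, of which 14 were in introns and 10 were matched within 100 bp among the strongest peaks of every replicate. E2f1 alone held 8 of the 15.

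The known sites of cell cycle transcription were then looked for, since E2F factors and the DNA replication-related element (DRE), which the factor Dref binds, control many replication genes in flies. An E2F site was taken as TTTCCCGC, TTTCGCGC, TTTGCCGC or TTTGGCGC, and a DRE as TATCGATA, on both strands, from 250 bp before to 50 bp after each start. At least 1 E2F site was found at 15 of the 46 members (32.6%), beside 8.69% of all genes, and a DRE at 12 members (26.1%), beside 10.2%. The members with an E2F site were split evenly: 7 were bound and 8 were not. For the DRE, 4 members with one were bound and 8 were not. Over all genes, E2F sites were found at 10.9% of bound and 7.87% of other genes, and DREs at 17.1% of bound and 7.62% of other genes. A match of letters does not show that a factor binds there.

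The strongest thresholded summits lay away from the E2F sites. None of the 21 strongest member summits had an E2F site within 50 bp or within 100 bp, beside 1.4% and 3.16% of the 3223 promoter peaks, windows of 101 and 201 bp. At 3 counts, 0 of 21 peaks allows a share of up to 14.3%, so the members could not be told apart from promoter peaks in general. A DRE lay within 50 bp at Orc2 alone (4.76%, beside 3.29%), and within 100 bp also at CycA. In the 7 bound members with E2F sites, the 8 sites lay between 93 and 582 bp from the nearest thresholded summit, with a median of 268 bp. The shortest of these distances was to the weaker summit of dup, at rank 8413. Among bound genes holding an E2F site, 1 of 7 members (14.3%) had any thresholded summit within 100 bp of a site, beside 21.6% of 408 genes. Weaker peaks of the pooled list lay closer to some sites. Counting every pooled-list summit, 6 of the 15 members with an E2F site had one within 100 bp of it, and 2 of these within 50 bp. The distances were 29 bp at Orc1 (rank 8818), 45 bp at Mcm2 (rank 11369), 80 bp at RnrL (rank 29097), 83 bp at Mcm5 (rank 8546), 84 bp at Mcm3 (rank 23475) and 93 bp at dup. This pooled-list count was not made over all genes with an E2F site, so the 6 of 15 cannot be set against a general share.

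The sites themselves are shown for the members where the distance to the summit can be read beside them, in 30 bases each on the strand of the gene, from the RefSeq Release 6 assembly, with the site in capitals. In Mcm2 the site is centred 39 bp after the start and 249 bp from the summit (chr3R:8264995-8265024, plus strand). In Mcm5 it is 35 bp after the start and 287 bp from the summit (chr3R:10788545-10788574, plus strand), and in Mcm6 16 bp after the start and 367 bp from the summit (chrX:6674389-6674418, plus strand). In stg it is 9 bp before a start and 456 bp from the summit (chr3R:29255795-29255824, minus strand). The sites of CycE lie 458 and 435 bp from the intron summit of rank 176 (chr2L:15746683-15746712 and chr2L:15746706-15746735, minus strand). RnrL (chr2L:10327923-10327952, minus strand) and Mcm3 (chrX:5323838-5323867, plus strand) show sites at members that were not bound. Orc2 (chr3R:13964673-13964702, plus strand) shows the DRE that lay 10 bp from a summit.
Mcm2: ttagcaaacatTTTCCCGCgcattttcgca
Mcm5: cggtaattttgGCGGCAAAatattcgcaca
Mcm6: gtcagaaaaagGCGCCAAAaccgagcaaag
stg: taaaagctcgcGCGCCAAAatcagtggcct
CycE, site nearer the start: gatccgcctgtTTTGGCGCgttcctcatgc
CycE, site nearer the summit: ttgttgcatttTTTGGCGCttcggatccgc
RnrL: aatgactttaaTTTGGCGCctttttgtgct
Mcm3: cacactacgctTTTCCCGCgaaaaaacttt
Orc2, DRE: taatttaaattTATCGATAacgtatgcaat

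In Mcm5, Mcm6 and stg the capitals are the reverse complement of a listed form. The Mcm2, Mcm5 and Mcm6 promoters were alike in layout: a site 16 to 39 bp after the start, and a summit upstream on the far side of the start. Each of these summits was shared with a neighbour, and 86.9% of all bound genes had their summit upstream. Weaker pooled-list summits lay nearer to these starts, 6, 48 and 124 bp upstream in Mcm2, Mcm5 and Mcm6. Among unbound members with an E2F site, the nearest thresholded summit to a site was 435 bp away in CycE and at least 2790 bp away in the others.

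**Figure D5:**
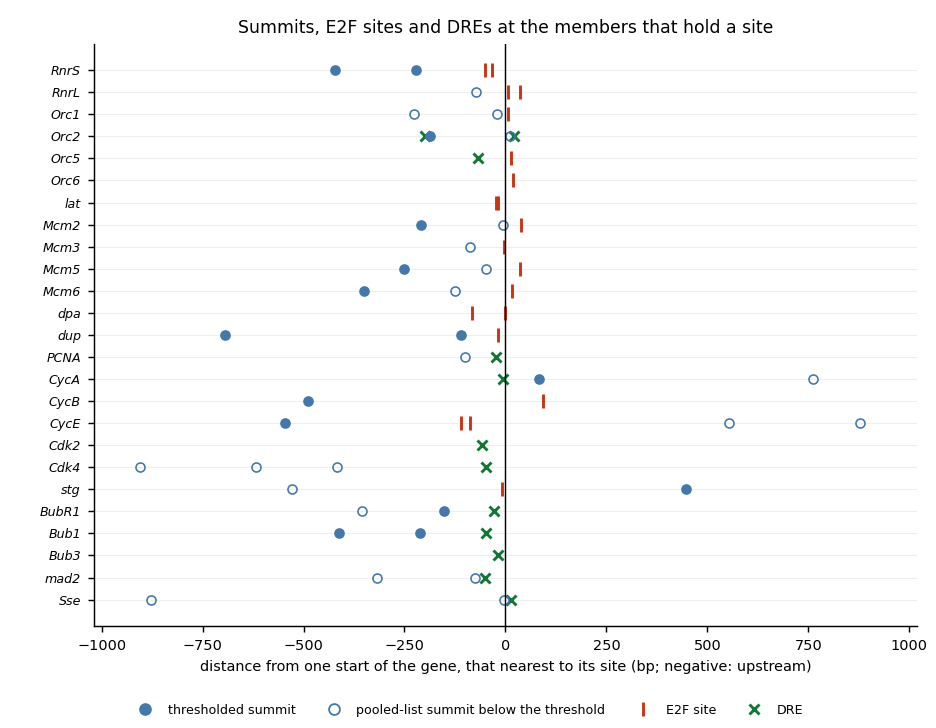
For the 25 members with an E2F site (red tick) or a DRE (green cross) near a start, the sites and the summits of the thresholded list (filled circles) and of the weaker pooled-list peaks (open circles) are placed by distance (bp) from 1 start of the gene, the one nearest to its first site; sites at a second start of lat fall outside the range. Filled circles and red ticks of the same gene lie apart, closest in dup, and Orc2 has a filled circle on a green cross.

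Other short sequences searched within 50 bp of the summits were the CGATA core bound by BEAF-32, which every DRE also contains, at 6 of 21 members (28.6%, beside 18.8% of promoter peaks). The GGTCACAC core bound by M1BP was at 2 (9.52%, beside 1.68%), fzy and CycB3. The GAGAG element was at 1 (4.76%, beside 8.94%), and the cell cycle homology region, TTTGAA or TTCGAA, at 5 (23.8%, beside 22.4%). No member had the E-box CACGTG (0.931% of promoter peaks), and 8 had TATAAA (38.1%, beside 26.3%). With 21 windows, differences of a few peaks cannot be told from none.

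A wider set of 93 cell cycle genes outside the 46, of 94 listed, had a similar share of bound genes, 41 (44.1%), beside 26.7% of all genes. In the pooled list 62 had a promoter peak, beside 44.7% of all genes. Most of the 93 start within 1000 bp of another gene, and 40.8% of all genes with so close a neighbour were bound. The 41 genes are not 41 separate peaks: RPA1 counts through the Mcm2 peak (rank 1313), and lok and barr share 1 peak (rank 3464). By class, 11 of 33 replication factors were bound, 4 of 6 genes of the dREAM complex, the repressor complex built on Rbf, E2f2 and Dp, 5 of 11 APC subunits and ubiquitin enzymes, and 5 of 9 checkpoint kinase and mitotic entry genes. The kinetochore class had 4 of 13, cohesin and condensin 8 of 14, and other cyclins and kinases 4 of 7. These classes of 6 to 33 genes stand beside the same 26.7% of all genes, and no interval was computed for them. The strongest promoter peaks of the wider set exceeded those of every member bound at its promoter in 3 cases: the cohesin regulator pds5 (rank 361, shared with Mppe), the polymerase delta subunit PolD2 (rank 438, shared with CG13933) and lin-52 of dREAM (rank 481, shared with CG15771). The lin-52 summit lay 490 bp from the start and was within 500 bp in replicate 3 alone. The cohesin subunit gene SA1 (rank 682, shared with Gas41) and the APC subunit gene Cdc16 (rank 730, shared with orb) came next, and all 5 shared their summit with a neighbour. The gene of the tagged protein, CG18262, had no promoter peak, with its nearest thresholded summit 4536 bp away at rank 1175.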

How the data were processed

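Peak lists on dm6 were deposited for 3 replicates, for the pooled replicates and after thresholding by irreproducible discovery rate, per the file names and labels. Aligner, peak caller and settings: not given in the sources used here. The authors' signal value was treated as a score of unstated scale that ranks peaks within 1 list. The authors' −log10 q-value was 4.38 for every thresholded peak and ranked nothing. The size range was 200 to 800 bp per the labels. Read depth is unknown.

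Summits were compared with every transcript start of the 13945 protein-coding genes of Ensembl release 115 (BDGP6.54). A gene was bound when a summit lay within 500 bp of a start, and each gene was described by its strongest promoter peak. Summits within 100 bp were matched between lists. Of the 8529 strongest peaks, 8505, 8507 and 8529 lay on the 6 arms in replicates 1, 2 and 3. Shares have exact Clopper-Pearson 95% intervals. No test was run, because there is 1 group. Members were described by counts and medians beside those of all protein-coding genes, which include the members. Every member is named, and so are genes that share a member's peak and the 5 other cell cycle genes with the strongest peaks. The members, the wider list and the searched letters were chosen with earlier results of these data known. The calls were tested on simulated summits. Python 3.11.15, numpy 2.4.6 and pandas 2.3.3 were used.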

Additional observations from a re-analysis of the deposited data

How the results depend on the processing

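Of 36 alternative settings for 6 counts and medians, 14 stayed within 1.5 times the reported count (or 1 SD over replicates, 707, for the median rank) and 22 did not. The 21 bound members became 12 with a limit of 200 bp from a start, 9 with the 4000 strongest peaks and 36 with the pooled list, beside 18.3%, 14.6% and 44.7% of all genes. Of the 21, 10 had a peak shared with no other gene, a setting chosen after seeing the data. Requiring a match in both other replicates gave 12 (without replicate 2) to 14 members (without replicate 1, and likewise without replicate 3), beside 19.5%, 21.3% and 20.1% of all genes in these 3 settings. The mean of 21.7 members per replicate became 13 with the 200-bp limit, 36.67 with all 30000 peaks and 7.333 of 22 members once those with a close neighbour were left out, the last also chosen after seeing the data, and ran from 20.5 to 22.5 with 1 replicate left out. Members with a summit inside the gene numbered 9, 18 with the pooled list, 5 without summits near starts, and 5 to 7 with 1 replicate left out. The median rank of 5118 became 6922 with the 200-bp limit and 4082 with a 1000-bp limit, and the median over the mean ranks of 2 replicates was 5173 to 6228. The 6 bound members with no other start within 1000 bp became 11 when only starts within 500 bp counted as close, and 3 to 5 with 1 replicate left out. The 1 peak with an E2F site or DRE became 2 with 100 bp to each side, and 0 when a match was required in the other 2 replicates, whichever 1 was left out. The cause of these shifts was not tested. No paired analysis was possible because there is 1 group. A search of a ready-made promoter table was not run.

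The main limits are the unknown read depth, the absence of control chromatin from what was analysed, and peaks shared by neighbouring genes. The thresholded list is a part of the pooled list and is no separate check of the replicates. The fixed 500-bp rule decides Cdk4 and CycE, whose nearest summits lie at 507 and 545 bp.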

Other observations

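At dpa, Myt1 and Bub3, at least 2 of the replicate lists held a promoter summit and the pooled list of 30000 peaks held none within 500 bp of a start. Of the 6585 protein-coding genes with a promoter summit in at least 2 replicate lists, 590 had none in the pooled list. These 590 are 4.23% of all 13945 genes and a larger share of the 6585. At dpa the replicate ranks were 2722 and 3774, inside the range that the thresholded list covers, and at Bub3 they were 8212 and 2879. The Bub3 peaks are also those of Cap-D2, whose start lies 230 bp away, and a start of didum lies 2 bp from one of dpa. Why the pooled list lacks these peaks was not tested.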
